A study of Mus musculus with 30 samples.

Results

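Id1, Id2 and Id3, the inhibitory Smads Smad6 and Smad7, follistatin (Fst) and myostatin (Mstn) were followed by RNA-seq in differentiating C2C12 cells exposed to hexavalent chromium. These 7 genes were chosen by name from the 48709 genes of the expression table. C2C12 is a mouse muscle progenitor line that fuses into myotubes after serum is lowered. Potassium chromate, the source of Cr(VI), was added to the differentiation medium at 0, 2 or 5 µM, and cells were taken on days 0, 1, 2 and 4 of differentiation. Day 0 was sampled at 0 µM only. The 10 groups were control (0 µM) cells on days 0, 1, 2 and 4, 2 µM cells on days 1, 2 and 4 and 5 µM cells on days 1, 2 and 4, with 3 libraries each and 30 in all. Every group was the same cell line, labelled with no transgene or knockdown.

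Ligands of the TGF-beta superfamily bind receptor kinases that phosphorylate Smad proteins. BMP ligands act mainly through Smad1, Smad5 and Smad9, while TGF-beta, activins and myostatin act through Smad2 and Smad3. Id proteins are helix-loop-helix factors without a DNA-binding region. They capture the E-protein partners of MyoD and related factors and are classic BMP targets that keep myoblasts from differentiating. Smad6 and Smad7 are induced by these pathways and block their receptors. Myostatin is a secreted inhibitor of muscle growth, and follistatin is a secreted protein that binds activins and myostatin and keeps them from their receptors.

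The promoter windows of Id2 and Id3 are shown because both genes are described in the literature as direct targets of BMP signalling. The windows below lie upstream of the annotated start in RefSeq on GRCm38.p6, with the match in capitals, and each is written 5′ to 3′ on the strand of its gene. Searched on both strands were GGCGCC (a GC-rich element bound by BMP-activated Smads), CAGAC (a Smad binding element) and CANNTG (the E box of helix-loop-helix factors). Id2 is on the minus strand of chromosome 12, with GGCGCC in chr12:25096306-25096335 and an E box in chr12:25096271-25096300. Id3 is on the plus strand of chromosome 4, with CAGAC in chr4:136143643-136143672 and, read on the other strand, in chr4:136143742-136143771.
Id2, GGCGCC: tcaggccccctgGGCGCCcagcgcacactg
Id2, E box: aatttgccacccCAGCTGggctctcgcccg
Id3, CAGAC: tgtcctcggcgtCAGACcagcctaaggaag
Id3, CAGAC on the other strand: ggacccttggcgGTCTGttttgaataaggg
The matches begin 231 and 196 bases before the start of Id2 and 167 and 68 bases before that of Id3. Within 250 bases upstream, GGCGCC occurs in 9.59% of 32851 mouse promoters, CAGAC in 42.2% and CANNTG in 66.2%. The Id2 window held no CAGAC, and the Id3 window held neither GGCGCC nor an E box. Among the other members, Smad6 had no match, and Mstn had 2 CAGAC and 4 CANNTG matches. Id1, Smad7 and Fst had no entry among these promoters and were not searched. These are descriptions of letters and not measured binding.

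Levels are given as scaled CPM, the normalised read count (counts per M) in the deposited table. Each library held 18.5 to 26.9 M reads, and 1 read was worth 0.0380 to 0.0584 scaled CPM. Changes are on the log2(scaled CPM + 1) scale with their standard error, which understates the change of genes near 0. Tests were made with limma over the 12946 genes that reached 1 scaled CPM in 3 or more libraries, and calls were made at an adjusted p (Benjamini-Hochberg) below 0.05. Of the 7 members 6 passed that filter and Mstn did not. In bulk RNA, a change in the number of cells that express a gene and a change per cell cannot be told apart.

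A pair of day 1 libraries held transcripts of other tissues. Replicate 1 at 2 µM had 6138 scaled CPM summed over 8 adipocyte markers, against at most 2.29 in the 28 libraries outside this pair. The same library had 1559 over 4 fibroblast markers and 27.9 over 6 endothelial markers, against at most 588 and 2.24 in the 28. Col1a1 (633) and Dcn (849.5), genes described below, are among those fibroblast markers. Replicate 3 at 5 µM had 441 over 6 lung epithelial markers and 306 over 7 leukocyte markers, against at most 1.13 and 1.42 in those 28. That library also had 25.6 over the adipocyte and 21.2 over the endothelial markers. In the same 28 libraries 8 skeletal muscle markers summed to 843 to 15950 scaled CPM, and in the pair to 2115 at 2 µM and 1378 at 5 µM. Most tests of the members that involve day 1 of a chromate dose are given with and without the pair where they are described.

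Follistatin was the member with the widest range of group means, and its level on days 2 and 4 was far lower at 5 µM than in control cells. In control cells Fst had 5.58, 4.42 and 4.38 scaled CPM on day 0. On day 1 it had 6.82, 4.97 and 8.41, on day 2 it had 94.6, 101 and 93.1, and on day 4 it had 484, 473 and 466. The day 0 and day 1 replicates overlapped, and each later day lay wholly above the one before. At 2 µM Fst had 14.1, 4.83 and 2.56 on day 1, 47.2, 46.4 and 44.1 on day 2 and 256, 276 and 273 on day 4. At 5 µM it had 4.26, 2.21 and 2.17 on day 1, 8.89, 10.4 and 4.06 on day 2 and 61.5, 57.8 and 55.2 on day 4. On days 2 and 4 the replicates of the 3 doses did not overlap, with the control highest and 5 µM lowest.

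In control cells Fst rose by 3.67 ± 0.29 between day 1 and day 2 (adjusted p = 5.8e-12) and by a further 2.29 ± 0.29 between day 2 and day 4 (adjusted p = 2.2e-07). The mean on day 4, 474 ± 8.86 (SD, n = 3), was 98.9 times the day 0 mean of 4.79 ± 0.682. Between day 0 and day 1 the change was 0.40 ± 0.29 (adjusted p = 0.27). Fst overlaps Gm47040 on the opposite strand in the GENCODE annotation, and the strand used in counting is not given in the sources used here, so reads of the pair cannot be told apart.

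At 5 µM Fst was 7.78 ± 3.31 on day 2, against 96.1 ± 3.97 in control cells, or 8.10% of the control mean. This was a change of −3.55 ± 0.29 on the log2 scale (adjusted p = 1.7e-11). On day 4 it was 58.2 ± 3.17 at 5 µM, against 474 ± 8.86 in control cells, or 12.3% of the control mean. This was a change of −3.01 ± 0.29 (adjusted p = 1.3e-10). On day 1 the means were 2.88 ± 1.20 at 5 µM and 6.73 ± 1.72 in control cells, a change of −1.01 ± 0.29 (adjusted p = 0.017). Without the pair of libraries the day 1 change was −0.89 (adjusted p = 0.0076). The day 1 call did not hold under robust variance estimates (adjusted p = 0.053), without the level filter (0.065), with only its own groups in the fit (0.10), or when control replicate 3 (0.096), 5 µM replicate 2 (0.075) or 5 µM replicate 3 (0.073) was left out.

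**Figure D1:**
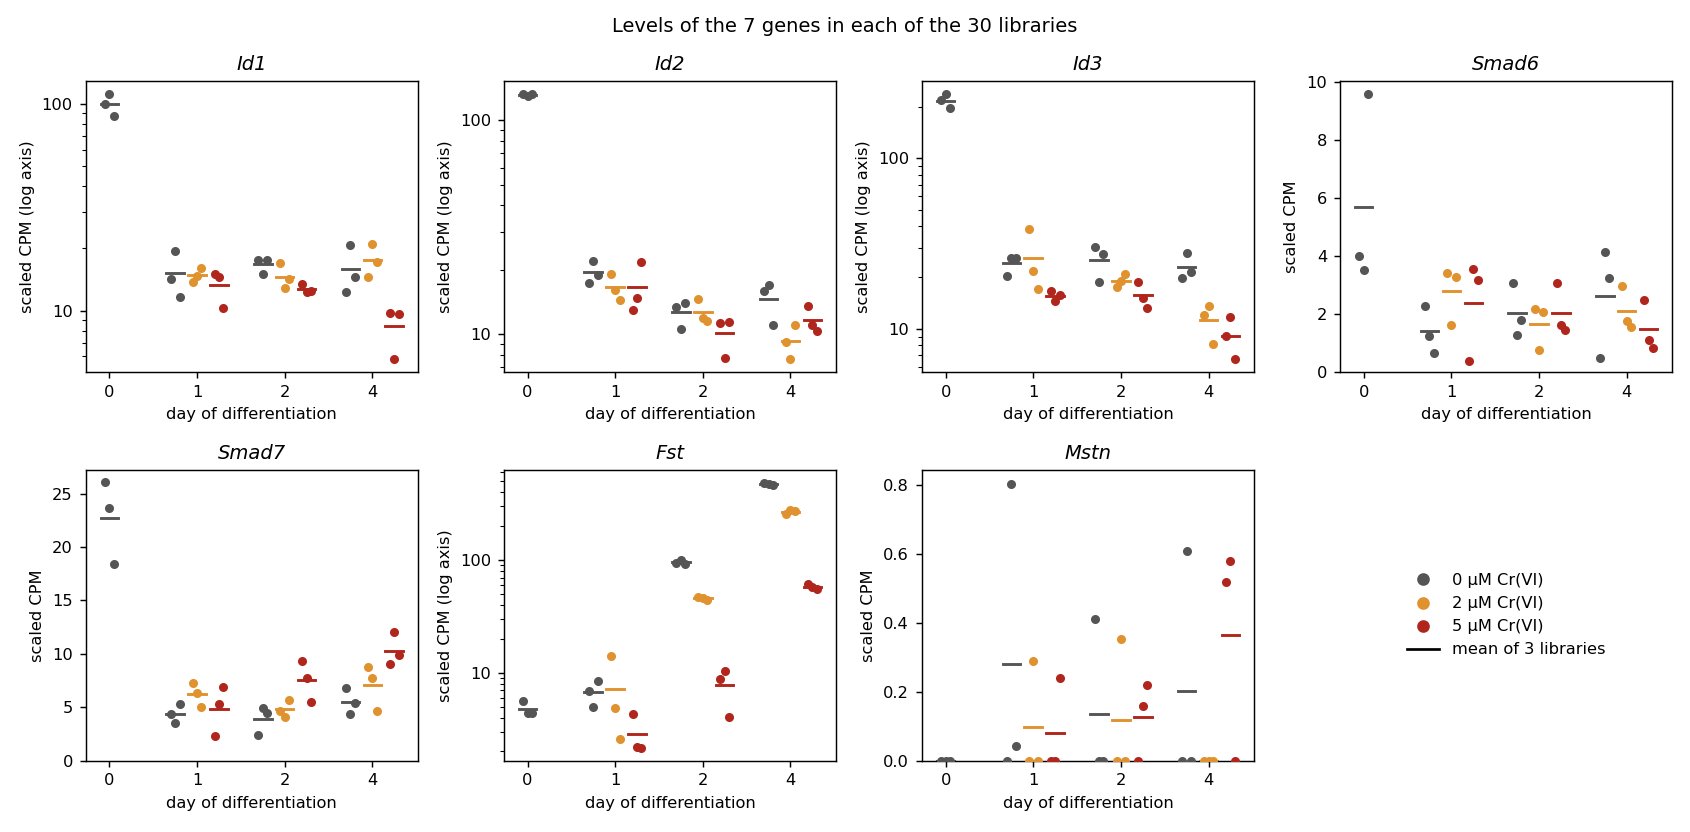
Level of each member in each of the 30 libraries, in scaled CPM, by day of differentiation and dose of Cr(VI). Points are libraries and bars are means of 3; the axes of Id1, Id2, Id3 and Fst are logarithmic and those of Smad6, Smad7 and Mstn linear. Id1, Id2, Id3 and Smad7 were highest on day 0, while Fst reached 474 in control cells and 58.2 at 5 µM on day 4.

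The effect of 5 µM on Fst grew between day 1 and day 2, by a difference of differences of −2.54 ± 0.41 (adjusted p = 7.0e-05), and −2.66 (1.8e-07) without the pair. Between day 2 and day 4 it did not change detectably (0.54 ± 0.41, 95% interval −0.30 to 1.39, adjusted p = 0.38). Within the 5 µM cells Fst rose by 1.14 ± 0.29 between day 1 and day 2 (adjusted p = 0.0042) and by 2.83 ± 0.29 between day 2 and day 4 (adjusted p = 1.4e-09). With only these groups in the fit the first of these rises had an adjusted p of 0.083, and its replicates overlapped. Without the pair it was 1.01 (adjusted p = 0.0014). The day 4 mean at 5 µM was 12.1 times the control day 0 mean, a rise by 3.36 ± 0.29 (adjusted p = 5.1e-12).

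Fst at 2 µM lay between the other doses on days 2 and 4. Its mean on day 2 was 45.9 ± 1.63 at 2 µM and 96.1 ± 3.97 in control cells, or 47.8% of the control mean. On day 4 it was 268 ± 10.7 at 2 µM and 474 ± 8.86 in control cells, or 56.6%. Neither difference passed the test over all 30 libraries, at −1.05 ± 0.29 (adjusted p = 0.10) on day 2 and −0.82 ± 0.29 (adjusted p = 0.077) on day 4, although the replicates did not overlap. Without the pair of day 1 libraries, in one of which Fst stood at 14.1 beside 4.83 and 2.56, both differences passed at adjusted p = 0.0050 and 0.0070. Both also passed with only their own groups in the fit (8.2e-04 on day 2 and 0.0014 on day 4). The day 4 difference passed with a pseudocount of 2 as well (0.042). On day 1 Fst at 2 µM differed from control cells by −0.16 ± 0.29 (adjusted p = 0.91). Without 2 µM replicate 1, the library with adipocyte transcripts, this day 1 difference was −0.74 and was not called. Between 5 µM and 2 µM, Fst was lower at 5 µM, at −2.50 ± 0.29 on day 2 (adjusted p = 9.2e-08) and −2.19 ± 0.29 on day 4 (adjusted p = 1.7e-07). On day 1 that difference was −0.85 ± 0.29 (adjusted p = 0.085), and −0.15 (adjusted p = 0.87) without the pair. It was called with DESeq2 (−1.33, adjusted p = 0.023) and edgeR (−1.34, 0.023), without 2 µM replicate 3 (−1.32, 0.00245) and without 5 µM replicate 1 (−1.09, 0.040). Over all 10 groups the order of Fst means was control day 4, 2 µM day 4, control day 2, 5 µM day 4 and 2 µM day 2, with no overlap between neighbours. The next 4, 5 µM day 2, 2 µM day 1, control day 1 and control day 0, overlapped each with its neighbour, and 5 µM day 1 was lowest.

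Myostatin was close to the limit of detection in every group. It was listed at 0 in 19 of 30 libraries, and its highest value was 0.803 scaled CPM, from 21 reads in control replicate 2 on day 1. In total 97 reads were assigned to it, and the limit that a count of 0 allows, 3 reads, was 0.114 to 0.175 scaled CPM. On day 4 it had 0.518, 0.579 and 0 at 5 µM, against 0, 0.608 and 0 in control cells. Each pair of neighbouring groups overlapped, and no test was made. Over all genes, a gene with 11 to 20 reads in 1 replicate was at 0 in another in 31.4% of pairs, so a value of 0 in a library is no evidence of absence.

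Both inhibitory Smads fell between day 0 and day 1 in control cells. Smad7, which blocks type I receptors of both branches, had 4.36, 3.56 and 5.30 scaled CPM on day 1 in control cells, against 26.0, 23.6 and 18.4 on day 0. It fell by 2.13 ± 0.29 (adjusted p = 1.3e-07), and the control level then stayed between 2.38 and 6.83 through day 4. Smad6, which acts mainly on the BMP branch, had 2.27, 1.26 and 0.673 on day 1, against 4.00, 3.53 and 9.59 on day 0. Its change of −1.43 ± 0.44 (adjusted p = 0.0075) was −1.04 (adjusted p = 0.076) without day 0 replicate 3, the library at 9.59. On day 4 Smad6 had 0.502, 4.15 and 3.25 in control cells, which overlapped day 0, and the difference from day 0 was −0.96 ± 0.44 (adjusted p = 0.060).

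Smad7 was the member that was higher with 5 µM chromate. On day 2 it had 9.37, 7.76 and 5.51 at 5 µM, against 2.38, 4.94 and 4.52 in control cells. On day 4 it had 9.04, 12.0 and 9.87 at 5 µM, against 6.83, 4.41 and 5.38 in control cells. The replicates did not overlap on either day. Smad7 was higher by 0.81 ± 0.29 on day 2 (adjusted p = 0.037) and by 0.80 ± 0.29 on day 4 (adjusted p = 0.018). Both calls rested on single libraries: the day 2 difference was 0.55 (adjusted p = 0.24) without control replicate 1, 0.65 (0.17) without 5 µM replicate 1 and 0.77 (0.094) without 5 µM replicate 2, and the day 4 difference was 0.67 (0.079) without control replicate 2 and 0.69 (0.073) without 5 µM replicate 2. The day 2 call was also lost without the level filter (0.066) and with only its own groups in the fit (0.061).

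On day 1 Smad7 had 2.35, 5.32 and 6.94 at 5 µM, against 4.36, 3.56 and 5.30 in control cells, a difference of 0.04 ± 0.29 (adjusted p = 0.96) that was −0.22 (0.72) without the pair of libraries. The change of the 5 µM effect between day 1 and day 2, 0.76 ± 0.40, did not pass (adjusted p = 0.34, and 1.03 with 0.17 without the pair). Within the 5 µM cells Smad7 differed by 0.61 ± 0.29 between days 1 and 2 (adjusted p = 0.14), and by 0.87 without the pair (adjusted p = 0.044), when it was called. At 2 µM Smad7 means were 6.22 ± 1.10, 4.81 ± 0.803 and 7.05 ± 2.12 on days 1, 2 and 4, and no difference from control passed (adjusted p = 0.60 to 0.93). On day 1 that difference was 0.42 ± 0.29, and 0.32 (adjusted p = 0.85) without the pair. Between 5 µM and 2 µM, over all 30 libraries, Smad7 did not pass on day 2 (0.54 ± 0.29, adjusted p = 0.25). Nor did it pass on day 4 (0.52 ± 0.29, adjusted p = 0.14), although the day 4 replicates did not overlap. The 5 µM day 4 mean of 10.3 ± 1.54 was the highest after that of day 0, at 45.5% of it, a change of −1.06 ± 0.29 relative to day 0 (adjusted p = 0.0017). For Smad6, levels after day 0 lay between 0.384 and 4.15 in every dose group. On day 4 it had 2.50, 1.11 and 0.817 at 5 µM, against 0.502, 4.15 and 3.25 in control cells, a difference of −0.43 ± 0.44 with a 95% interval of −1.33 to 0.46 (adjusted p = 0.42).

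All 3 Id genes fell between day 0 and day 1 of differentiation. Id1 had 14.3, 19.5 and 11.7 scaled CPM on day 1 in control cells, against 100.3, 111 and 87.4 on day 0. Id2 had 17.4, 22.1 and 19.0 on day 1, against 132, 130.1 and 132 on day 0. Id3 had 20.5, 26.2 and 25.9 on day 1, against 221, 238 and 197 on day 0. Every day 1 library was far below every day 0 library. The changes were −2.66 ± 0.21 for Id1 (adjusted p = 5.8e-13), −2.70 ± 0.20 for Id2 (1.6e-13) and −3.13 ± 0.22 for Id3 (8.4e-14). Together with Smad6 and Smad7, 5 of the 6 tested members fell between day 0 and day 1, a step in which 48.1% of all tested genes were called and 22.7% were lower.

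After day 1 the control levels of the Id genes moved little. Id1 means were 15.1 ± 3.96, 16.7 ± 1.48 and 15.9 ± 4.37 on days 1, 2 and 4. Id3 means were 24.2 ± 3.20, 25.4 ± 5.79 and 23.2 ± 4.27, and Id2 means were 19.5 ± 2.36, 12.7 ± 1.84 and 14.7 ± 3.15. Id2 was lower on day 2 than on day 1, at −0.59 ± 0.20 (adjusted p = 0.029), a call that was lost without day 1 replicate 2 (0.12), day 1 replicate 3 (0.058) or day 2 replicate 2 (0.15). With Fst, which rose, this made 2 of 6 members called between days 1 and 2, against 22.2% of all genes. Between days 2 and 4 Fst was the 1 member called, against 25.7% of all genes. From day 0 to day 4 in control cells 5 of 6 members were called, against 59.8% of all genes, with Fst higher and Id1, Id2, Id3 and Smad7 lower.

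**Figure D2:**
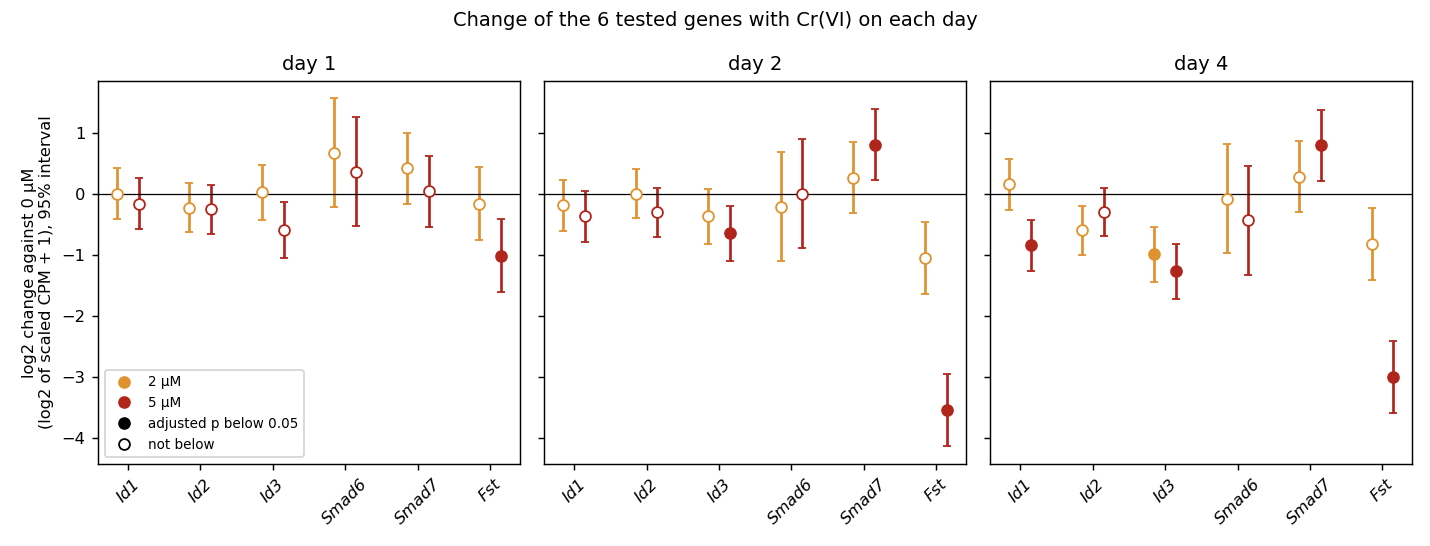
Log2 change of the 6 tested members at 5 µM against 0 µM and at 2 µM against 0 µM, by day of differentiation, on the log2(scaled CPM + 1) scale. Points are limma estimates with 95% intervals and filled points passed an adjusted p of 0.05; Fst at 5 µM lay at −3.55 on day 2 and −3.01 on day 4, and Smad7 lay above 0 on both days.

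With 5 µM chromate, Id1 and Id3 fell below the level of control myotubes on day 4, while Id2 did not pass the test. Id3 had 9.04, 11.7 and 6.66 at 5 µM, against 19.9, 28.0 and 21.5 in control cells, a change of −1.27 ± 0.22 (adjusted p = 1.1e-05) to 39.4% of the control mean. Id1 had 9.70, 5.84 and 9.63 at 5 µM, against 12.4, 20.8 and 14.5 in control cells, a change of −0.84 ± 0.21 (adjusted p = 7.2e-04) to 52.9% of the control mean. Neither gene's replicates overlapped. Id2 had 13.5, 11.1 and 10.3 at 5 µM, against 16.0, 17.0 and 11.1 in control cells. Its difference was −0.30 ± 0.20, with a 95% interval of −0.70 to 0.10 (adjusted p = 0.21), and the replicates overlapped.

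On day 2 Id3 had 18.8, 15.1 and 13.2 at 5 µM, against 30.0, 18.9 and 27.3 in control cells, with no overlap. It was lower, at −0.65 ± 0.22 (adjusted p = 0.031), but the call was lost without the level filter (0.074), with quantile normalization (0.075), or without any of control replicate 1 (0.16), control replicate 3 (0.11), 5 µM replicate 2 (0.079) and 5 µM replicate 3 (0.13). On day 1 Id3 had 16.8, 14.5 and 15.8 at 5 µM, against 20.5, 26.2 and 25.9 in control cells, a difference of −0.59 ± 0.22 (adjusted p = 0.076) without overlap, and −0.60 (0.069) without the pair of libraries. Id1 on day 2 had 13.4, 12.3 and 12.4 at 5 µM, against 17.7, 15.0 and 17.5 in control cells, at −0.37 ± 0.21 (adjusted p = 0.21). The changes of the 5 µM effect from day to day did not pass for any Id gene with or without the pair, the nearest being Id3 between days 2 and 4 (−0.62 ± 0.32, adjusted p = 0.16).

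Within the 5 µM cells, Id1 and Id3 fell between days 2 and 4 and Id2 did not pass. Between days 2 and 4 Id3 fell by 0.74 ± 0.22 (adjusted p = 0.0079) and Id1 by 0.58 ± 0.21 (adjusted p = 0.023), while Id2 was 11.6 ± 1.66 on day 4 and 10.2 ± 2.11 on day 2 (0.19 ± 0.20, adjusted p = 0.47). Leaving out day 4 replicate 2, the lowest Id1 library at 5.84, took Id1 to a change of −0.36 (adjusted p = 0.20). Its call was also lost without day 2 replicate 1 (0.068), with quantile normalization (0.11) and with only its own groups in the fit (0.071), and the Id3 call without day 2 replicate 1 (0.054) or day 4 replicate 3 (0.074). Between days 1 and 2 Id2 was lower, at −0.64 ± 0.20 (adjusted p = 0.017). This call rested partly on the 5 µM day 1 library with lung and leukocyte transcripts, in which Id2 had 21.8 beside 13.0 and 14.8; without the pair the difference was −0.43 (adjusted p = 0.16), and it was lost as well without day 2 replicate 2 (0.14) and with only its own groups in the fit (0.14).

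At 2 µM, Id3 was the 1 member called, on day 4. It had 12.0, 13.7 and 8.13 at 2 µM, against 19.9, 28.0 and 21.5 in control cells, a change of −0.99 ± 0.22 (adjusted p = 0.0031) to 48.7% of the control mean. With only its own groups in the fit the adjusted p was 0.070. Id2 on day 4 had 9.22, 7.67 and 11.0 at 2 µM, against 16.0, 17.0 and 11.1 in control cells, at −0.60 ± 0.20 (adjusted p = 0.052, and 0.034 without the pair of day 1 libraries). Id2 was also called with DESeq2 (0.024), edgeR (0.030), the filter of 5 CPM (0.043), robust variance (0.047) and median-of-ratios scaling (0.049). The same held without control replicate 3 (0.018) or 2 µM replicate 3 (0.040). Id1 had 14.6, 21.0 and 17.2 at 2 µM, against 12.4, 20.8 and 14.5 in control cells, at 0.16 ± 0.21 with a 95% interval of −0.26 to 0.57 (adjusted p = 0.73). On day 1, Id3 had 38.7, 21.9 and 17.2 at 2 µM, the first of them in the library with adipocyte transcripts, against 20.5, 26.2 and 25.9 in control cells. The difference was 0.02 ± 0.22 (adjusted p = 0.99) with that library and −0.30 (adjusted p = 0.78) without the pair.

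Between the chromate doses on day 4, Id1 passed the test and Id2 and Id3 did not, and differences between the genes were not tested. Id1 was 8.39 ± 2.21 at 5 µM and 17.6 ± 3.21 at 2 µM, lower at 5 µM, at −1.0 ± 0.21 (adjusted p = 1.3e-04). Id3 was 9.13 ± 2.52 at 5 µM and 11.3 ± 2.85 at 2 µM (−0.28 ± 0.22, 95% interval −0.73 to 0.17, adjusted p = 0.32). Id2 was 11.6 ± 1.66 at 5 µM and 9.30 ± 1.67 at 2 µM (0.30 ± 0.20, 95% interval −0.10 to 0.70, adjusted p = 0.22), and it was called with quantile normalization (0.50, adjusted p = 0.036). On day 1 the difference of Id3 was −0.61 ± 0.22 (adjusted p = 0.11), and −0.30 (0.64) without the pair of libraries. It was called with DESeq2 (−0.73, adjusted p = 0.030) and without 2 µM replicate 3 (−0.86, adjusted p = 0.025). Ranked over the 10 groups, day 0 was highest for all of Id1, Id2 and Id3 without overlap with the next group, and 5 µM day 4 was lowest for Id1 and Id3. The lowest Id2 group was 2 µM day 4, which overlapped 5 µM day 2.

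Counted over the 6 tested members, 5 µM against 0 µM gave 1 call on day 1 (Fst, lower), 3 on day 2 (Fst and Id3 lower, Smad7 higher) and 4 on day 4 (Fst, Id1 and Id3 lower, Smad7 higher). Over all tested genes 13.7%, 23.7% and 55.8% were called on days 1, 2 and 4. At 2 µM against 0 µM the calls were 0 on days 1 and 2 and 1 on day 4, against 1.99%, 0.51% and 8.84% of all genes. By unadjusted p below 0.05 in limma, 0, 1 and 3 members passed on these days, and edgeR and DESeq2 on the recovered reads called 0, 0 and 2 each. The percentages given here are limma calls by adjusted p. No share of all genes is set beside counts by unadjusted p, edgeR or DESeq2, so those counts cannot be read against a background. At 5 µM against 2 µM the calls were 0 on day 1, 1 on day 2 and 2 on day 4, against 5.54%, 12.8% and 47.6% of all genes. On day 1 of that comparison 2 members had an unadjusted p below 0.05 in limma, edgeR called 1 and DESeq2 called 2. Within the 5 µM cells 2 members were called between days 1 and 2 and 3 between days 2 and 4, against 20.8% and 41.3% of all genes. Between days 1 and 2 these were Fst and Id2, and without the pair of libraries Fst and Smad7. For the change of the 5 µM effect, 1 member was called between days 1 and 2, against 5.8% of all genes. Between days 2 and 4 it was 0, against 23.7%, with 0 at an unadjusted p below 0.05 and 0 in edgeR and DESeq2. Between 5 µM day 4 cells and control day 0 myoblasts all 6 tested members were called, against 63.2% of all genes, with Fst higher and the other 5 lower. The Smad6 call among them was lost without day 0 replicate 3 (adjusted p = 0.070). The comparisons of 5 µM and of 2 µM with control share the same control libraries.

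Other genes of the pathway were counted from 8 lists of 79 genes, of which 67 passed the filter. At 5 µM against 0 µM, 4 rose and 10 fell on day 1. On day 2 it was 11 that rose and 9 that fell, and on day 4 it was 17 and 23. Over all tested genes the share that rose was 4.29% on day 1, 10.2% on day 2 and 27.3% on day 4, and the share that fell was 9.41%, 13.4% and 28.6%. The median log2 change on day 4 was −0.12 over the 67 genes and −0.01 over all genes. Without the pair of day 1 libraries the day 1 count was 4 higher and 11 lower.

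Of 10 tested ligands 1 rose and 4 fell on day 4. Beside this count and the day 4 counts of the lists below, 27.3% of all tested genes rose and 28.6% fell. Tgfb3, a TGF-beta ligand, was 63.2 ± 16.3 at 5 µM and 372 ± 72.1 in control cells, a change of −2.55 ± 0.14 (adjusted p = 1.6e-16). Gdf5, a BMP-type ligand, was 2.39 ± 1.32 at 5 µM and 26.5 ± 4.60 in control cells (−3.10 ± 0.32, adjusted p = 5.5e-10). Inhbb, which encodes an activin subunit, had risen on day 1, when it was 70.7 ± 9.93 at 5 µM and 35.4 ± 5.70 in control cells (0.98 ± 0.14, adjusted p = 1.9e-06, and 0.97 with 1.7e-05 without the pair of libraries). On day 2 Inhbb was 76.0 ± 5.90 at 5 µM and 41.4 ± 4.73 in control cells (0.86 ± 0.14, adjusted p = 8.1e-06). By day 4 it was 33.7 ± 5.69 at 5 µM and 36.2 ± 0.923 in control cells (adjusted p = 0.50). Gdf11, the ligand closest to myostatin, was 20.0 ± 7.74 at 5 µM and 87.7 ± 19.5 in control cells on day 4, a change of −2.12 ± 0.20 (adjusted p = 7.0e-11), and was also lower on day 1 (−0.91 ± 0.20, adjusted p = 0.0015, and −0.99 with 0.0017 without the pair). On day 2 between them the Gdf11 means were closer, at 42.0 ± 3.31 at 5 µM and 49.1 ± 6.05 in control cells.

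Of 11 receptors and co-receptors 2 rose and 1 fell on day 4, and without the pair of day 1 libraries 2 rose and 2 fell. The type I receptor Tgfbr1 was 158 ± 4.2 at 5 µM and 73.5 ± 8.00 in control cells (1.10 ± 0.11, adjusted p = 2.5e-10), and the type II receptor Tgfbr2 was 285 ± 10.7 at 5 µM and 209 ± 4.42 in control cells (0.44 ± 0.09, adjusted p = 7.1e-05). Of the 6 signalling Smads 4 rose and 1 fell on day 4. Smad5 was 252 ± 0.850 at 5 µM and 119 ± 16.0 in control cells (1.08 ± 0.10, adjusted p = 1.9e-11), and Smad1 was 47.6 ± 3.68 at 5 µM and 27.3 ± 2.31 in control cells (0.78 ± 0.15, adjusted p = 4.3e-05). Both are mediators of the BMP branch, as is Smad9, which had means of 2.10 at 5 µM and 1.19 in control cells on day 4. In the other branch Smad2 had 65.8 at 5 µM and 52.7 in control cells, and Smad3 had 77.0 and 120. Smad4 had 107 at 5 µM and 70.0 in control cells. Smad1 was also called on day 1 (0.53 ± 0.15, adjusted p = 0.016), but not without the pair of libraries (adjusted p = 0.086).

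Of 12 other extracellular antagonists 4 rose and 5 fell on day 4, and without the pair of day 1 libraries 4 rose and 6 fell. Chordin (Chrd), a BMP antagonist, was 6.42 ± 1.11 at 5 µM and 27.3 ± 3.19 in control cells on day 4 (−1.93 ± 0.30, adjusted p = 1.1e-06). Its relative Chrdl1 was 0.269 ± 0.283 at 5 µM and 9.63 ± 1.88 in control cells (−3.07 ± 0.35, adjusted p = 3.0e-09), and the follistatin-like gene Fstl1 was 97.5 ± 14.4 at 5 µM and 369 ± 8.68 in control cells (−1.92 ± 0.09, adjusted p = 4.2e-19). Decorin (Dcn), a proteoglycan that binds TGF-beta, went the other way, at 565 ± 8.53 at 5 µM and 119 ± 4.15 in control cells (2.24 ± 0.32, adjusted p = 2.6e-07). Antagonists thus moved in both directions, on a day when 27.3% of all tested genes rose and 28.6% fell.

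Of 10 other intracellular feedback genes 4 rose and 3 fell on day 4. The ubiquitin ligase Smurf1, a partner of the inhibitory Smads, was 125 ± 8.75 at 5 µM and 68.8 ± 14.1 in control cells (0.87 ± 0.11, adjusted p = 4.1e-08). The repressor Ski, which binds Smads, was 208 ± 4.59 at 5 µM and 127 ± 19.7 in control cells (0.72 ± 0.10, adjusted p = 3.0e-07). Pmepa1, a TGF-beta-induced inhibitor of Smad signalling, was 102 ± 3.63 at 5 µM and 289.95 ± 10.4 in control cells (−1.50 ± 0.08, adjusted p = 1.6e-16), and the corepressor Tgif2 was 4.09 ± 1.31 at 5 µM and 12.4 ± 1.20 in control cells (−1.42 ± 0.23, adjusted p = 3.7e-06). Nedd4l, another ubiquitin ligase, was called on day 1 (−0.43 ± 0.13, adjusted p = 0.025) but not without the pair of libraries (adjusted p = 0.14).

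Of the 6 other TGF-beta targets 3 fell on day 1, 2 on day 2 and 5 on day 4, with 1 higher on day 2. Over all tested genes 9.41%, 13.4% and 28.6% fell on these days, and 10.2% rose on day 2. Without the pair of libraries 4 fell on day 1. The actin-binding gene Tagln was 5.85 ± 1.27 at 5 µM and 259 ± 39.2 in control cells on day 4 (−5.26 ± 0.15, adjusted p = 1.3e-24), and the collagen gene Col1a1 was 6.60 ± 1.38 at 5 µM and 265 ± 28.0 in control cells (−5.14 ± 0.39, adjusted p = 3.7e-13). Of the 5 other BMP targets tested 1 rose and 1 fell on day 4. The homeobox gene Msx1 was 5.93 ± 0.789 at 5 µM and 2.89 ± 1.06 in control cells (0.87 ± 0.33, adjusted p = 0.025), and Hey1, also a Notch target, was 7.53 ± 2.00 at 5 µM and 12.2 ± 1.80 in control cells (−0.64 ± 0.21, adjusted p = 0.0092). Among 7 helix-loop-helix factors that Id proteins bind directly or through their partners, 1 rose and 3 fell on day 4. Myogenin (Myog), which drives terminal differentiation, was 233 ± 25.8 at 5 µM and 1152 ± 84.7 in control cells (−2.30 ± 0.13, adjusted p = 1.1e-16), and Myf5, a factor of the myoblast stage, was 94.1 ± 6.31 at 5 µM and 22.3 ± 2.56 in control cells (2.03 ± 0.12, adjusted p = 4.7e-16).

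**Figure D3:**
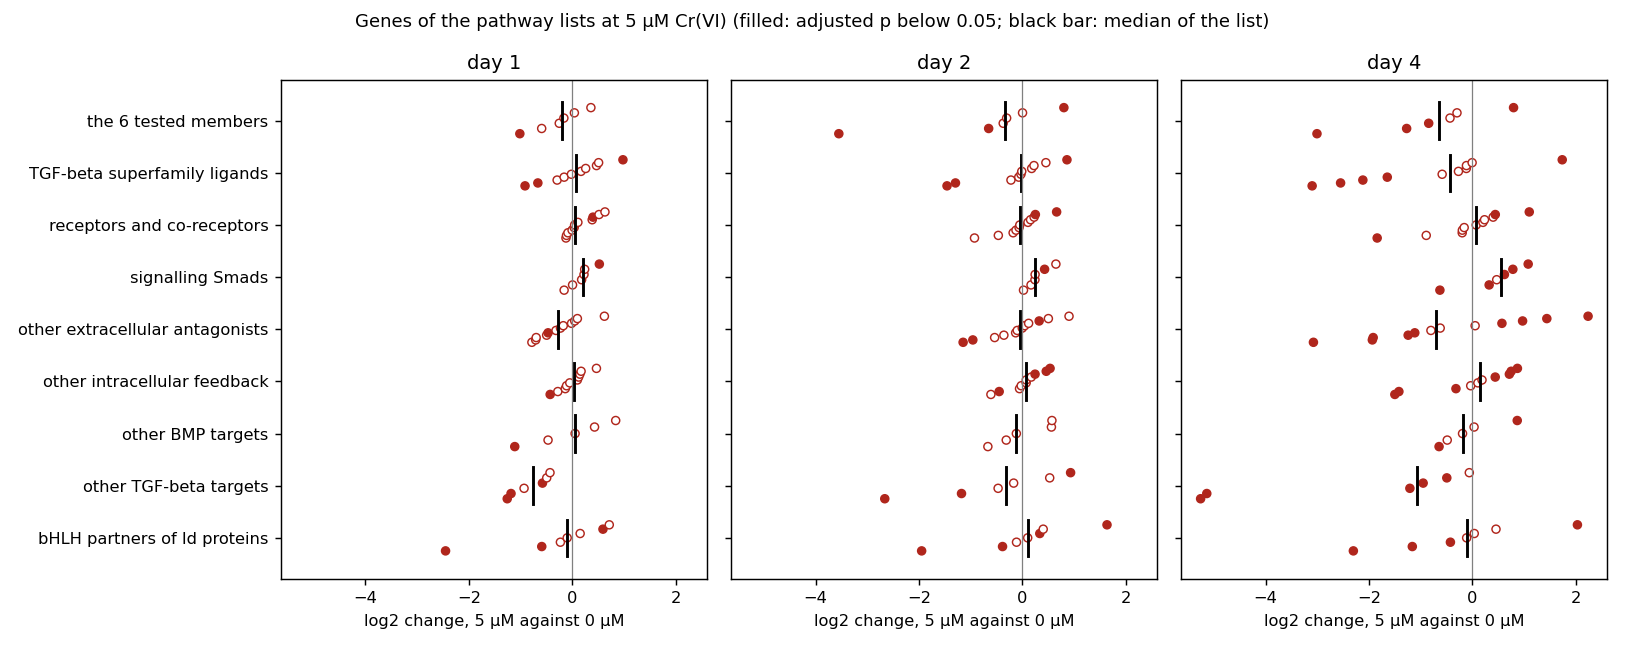
Log2 change at 5 µM against 0 µM of each tested gene of 8 pathway lists and of the 6 tested members, on days 1, 2 and 4. Each point is a gene, filled points passed an adjusted p of 0.05 in limma, and black bars are the median of a row; on day 4, 17 of the 67 list genes were higher and 23 lower.

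Across the 10 group means of log2(scaled CPM + 1), the Id genes resembled each other, with Pearson's r of 0.92 between Id1 and Id2, 0.95 between Id1 and Id3 and 0.95 between Id2 and Id3. Smad6 had r of 0.82 to 0.90 with the Id genes and Smad7 had 0.62 to 0.72. Fst had r of −0.44 to −0.24 with them. The points are groups that share a cell line and a series of days, and for the Id genes day 0 lies far from the other 9, so these values are descriptions.

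By the same measure over 10977 genes with a highest group mean of at least 5 scaled CPM, the genes most like Id1 were Atad3a (0.985), 4933404O12Rik (0.985) and Eftud2 (0.980). Among those most like Id2 were Pigf (0.974) and Cep78 (0.973), and those most like Id3 were Gins1 (0.987), Cep78 (0.975) and E130012A19Rik (0.974). For Smad7 they were Lpgat1 (0.968), C1qbp (0.964) and Mybbp1a (0.963), and for Smad6 Faap24 (0.936), Il12rb1 (0.935) and Drg2 (0.930). Fst was most like 3300002P13Rik (0.993), Rbfox1 (0.993) and Isx (0.991), and 138 genes reached an r of 0.95 or more with it, against 26 for Id1, 28 for Id2 and 41 for Id3. Mstn, at or near 0 throughout, gave Acbd3 (0.898), Chic2 (0.884) and Zfp715 (0.853). Without the pair of day 1 libraries the gene in first place was Eftud2 for Id1 and was as above for Id3, Smad6, Smad7 and Fst.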

How the data were processed

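RNA was taken with TRIzol from C2C12 cells in 10 groups of 3 libraries and made into libraries with an Illumina TruSeq kit, per the labels' protocols. The deposited table holds the authors' signal values, named CPM in the labels. Which aligner, build, strand and scaling were used is not given in the sources used here. Divided by 1 constant for each library, the values were whole reads (100% within 0.02 of a read), while the columns summed to 892246 to 1079916, so the values are called scaled CPM. Reads per library, 18.5 to 26.9 M, set the counting error, and the floor of 3 reads covers counting error only. Replicates are labelled as biological replicates, with no source named, so p-values measure the spread between these libraries, which may be partly technical.

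The 12946 genes that reached 1 scaled CPM in 3 or more libraries, of 19390 above 0, were taken as log2(value + 1). They were fitted with limma 3.58.1 in R 4.3.3 over all 30 libraries, with a mean per group, a mean-variance trend and 20 residual degrees of freedom. Adjusted p values are Benjamini-Hochberg over all tested genes and, unless another tool is named, come from limma. Values in parentheses after a setting or a left-out library are adjusted p values of that fit. Means are given with the SD of 3 libraries. The script was tested on simulated data.

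The members and lists were chosen with earlier results of these data known. Named were every member, for each list up to 2 called genes per day with the largest change at 5 µM, a mean of at least 5 scaled CPM and replicates that did not overlap, and the 3 genes most like each member. Some genes that met this rule are not reported here. Alternatives were other filters, pseudocounts of 0.5 and 2, quantile normalization, median-of-ratios scaling, a replicate term, robust variance, only the groups compared, each library or the pair of day 1 libraries left out, and edgeR 4.0.16 (quasi-likelihood) or DESeq2 1.42.0 on the recovered reads. Promoter windows were read with Python 3.11.15 from RefSeq on GRCm38.p6.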

Additional observations from a re-analysis of the deposited data

Results flagged for a closer look

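The effect of 5 µM chromate on Fst differed between day 1 and day 2, by −2.54 ± 0.41 on the log2 scale as an interaction term in limma (adjusted p = 7.0e-05). At 5 µM Fst was 2.88 ± 1.20 on day 1 and 7.78 ± 3.31 on day 2, against 6.73 ± 1.72 and 96.1 ± 3.97 in control cells. Over all settings the adjusted p ranged to 0.0020 without the level filter, and it was 1.8e-07 without the pair of day 1 libraries. The cause of the difference was not tested.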

How the results depend on the processing

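Of 1278 recomputed values of single members under settings other than leaving out 1 library, 1221 kept their direction and their side of the threshold, and of 720 with 1 library left out 627 did. The losses and gains of members' calls are given above beside most of the results. A replicate block, with same-numbered libraries as a term, changed no call of a member, and 4 members were called at 5 µM against 0 µM on day 4 under it. Same-numbered libraries showed no strong shared deviation (correlations −0.23 to 0.13, 0 of 16 comparisons with all over 0.1). The labels do not say whether the numbers pair samples, and with 3 libraries per group these correlations cannot settle it. No scaling moved the median change of all genes by more than 0.1, but quantile normalization made 44.2% of the calls higher at 5 µM against 0 µM on day 1, in place of 31.3%, and 40.6% in place of 23.3% at 5 µM against 2 µM on day 1. Between days 1 and 2 it gave 50.6% in place of 61.7% within 5 µM and 46.9% in place of 57.6% in control cells. Smad6, with 9 to 184 reads per library, and Mstn, with 0 to 21, had the fewest reads in total. Smad6 replicates also spread more than counting error at similar depth. In control cells on day 4 it had 10, 82 and 70 reads in libraries of 21.0, 20.8 and 22.7 M. Where a value below changed, the cause was not tested.

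Members called at 2 µM against 0 µM were 1 on day 2 with only its own groups or without the pair of day 1 libraries. On day 4 they were 2 with DESeq2, edgeR, the filter of 5 CPM, median-of-ratios scaling, a pseudocount of 2 or robust variance, and 3 without the pair. At 5 µM against 0 µM they were 0 on day 1 without the filter, with only its own groups or with robust variance, and 1 on day 2 without the filter. At 5 µM against 2 µM they were 2 with DESeq2 and 1 with edgeR on day 1 and 4 with quantile normalization on day 4. Between 5 µM day 2 and day 1 they were 0 with only its own groups. With 1 library left out they ranged over 1 to 2 at 2 µM on day 4, 0 to 1 and 1 to 3 at 5 µM on days 1 and 2, 0 to 2 for 5 µM against 2 µM on day 1, 1 to 2 and 1 to 3 for the steps within 5 µM, and 1 to 2 for control day 2 against day 1.

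All genes called at 2 µM against 0 µM, 258 on day 1, were 457 with DESeq2, 0 with only its own groups, 115 without the pair and 87 to 464 with 1 library left out. On day 2, with 66, they were 170 with DESeq2, 38 without the filter, 324 with only its own groups, 125 without the pair and 19 to 31 with 1 library left out. With only the groups compared they were 445 on day 4, in place of 1145, 855 for 5 µM against 0 µM on day 1, in place of 1774, and 24 for 5 µM against 2 µM on day 1, in place of 717, which was 405 without the pair.

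Signs turned only among small differences that had not been called. At 2 µM against 0 µM on day 1, Fst was 0.11 with DESeq2 and 0.12 with edgeR (−0.74 to 0.31 with 1 library left out), Id1 was −0.018 with DESeq2, −0.019 with edgeR and −0.015 with quantile normalization (−0.16 to 0.19), and Id3 was −0.30 without the pair (−0.30 to 0.27). Smad7 at 5 µM against 0 µM on day 1 was −0.22 without the pair (−0.22 to 0.40). Id2 at 5 µM against 2 µM on day 1 was 0.00092 with DESeq2, 0.0023 with edgeR and 0.037 with quantile normalization (−0.23 to 0.12). Within 5 µM between days 1 and 2, quantile normalization gave 0.019 for Id1 (−0.21 to 0.045) and 0.034 for Id3 (−0.14 to 0.10), and Smad6 was −0.24 with DESeq2, −0.23 with edgeR, −0.020 with median-of-ratios scaling and −0.035 with a pseudocount of 2 (−0.55 to 0.31). For the change of the 5 µM effect between days 1 and 2, Id2 was 0.070 with quantile normalization and 0.15 without the pair (−0.20 to 0.15), and Id3 was 0.035 with quantile normalization (−0.25 to 0.069). For that between days 2 and 4, Id2 was −0.056 with DESeq2, −0.040 with edgeR and −0.036 with median-of-ratios scaling (−0.17 to 0.12), and Smad7 was 0.021 with a pseudocount of 2 and 0.049 with quantile normalization (−0.19 to 0.25). Id3 for control day 2 against day 1 was −0.0012 with quantile normalization (−0.077 to 0.24).

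Signs turned with 1 library left out, and under no other setting, for Id1 at 5 µM against 0 µM on day 1 (−0.32 to 0.025) and for control day 4 against day 2 (−0.30 to 0.053). The same held for Id3 for control day 4 against day 2 (−0.31 to 0.011), Id2 at 2 µM on day 2 (−0.11 to 0.076) and Smad7 for control day 2 against day 1 (−0.31 to 0.096). For Smad6 it held at 2 µM on day 2 (−0.40 to 0.071) and day 4 (−0.62 to 0.27), at 5 µM against 0 µM on day 2 (−0.22 to 0.24), at 5 µM against 2 µM on day 1 (−0.62 to 0.24) and day 2 (−0.066 to 0.36), and for control day 4 against day 2 (−0.23 to 0.66).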
